A study of Mus musculus with 200 samples.

Results

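Backcross embryos that carried the Cast allele at many of their autosomal genes were compared in whole-embryo RNA with those that carried it at few. B6 is the inbred strain C57BL/6J and Cast is the inbred strain CAST/EiJ, which was derived from another mouse subspecies. F1 animals of the 2 strains were backcrossed to B6, and the resulting N2 embryos were harvested whole at E11.5 and profiled one by one with 3SEQ, a 3′-biased RNA sequencing method. For each N2 embryo, the share of autosomal genes on chromosomes 1 to 19 with a B6/Cast genotype was computed among the genes with a genotype. Embryos with a share of at least 55% formed the high group and those with a share of at most 42% the low group, which left 34 high and 37 low embryos of 154 with genotypes. The other 83 embryos lay between the thresholds and belong to neither group. The groups differ in no treatment, and the backcross to B6 gives no embryo homozygous for Cast. In the high group 19 embryos had a B6 mother with an F1 father and 15 an F1 mother with a B6 father. In the low group these numbers were 23 and 14.

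At each gene an N2 embryo has received a B6 allele from its B6 parent and, from its F1 parent, either a B6 or a Cast allele. Few crossovers occur on each chromosome in a meiosis, so an embryo receives the alleles in long blocks. A variant that acts in cis changes the output of the allele on the same chromosome copy, so that the total expression of a gene can follow the genotype at the gene itself. Variation in the rest of the genome, or heterozygosity as such, which is discussed in hybrids as heterosis, would act on a gene regardless of its own genotype. A comparison of high with low embryos mixes both, since each gene is itself more often heterozygous in the high group.

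The mean share was 61.2% ± 5.23 (SD, n = 34) in the high group, with a lowest value of 55.1%, a median of 59.9% and a highest value of 77.2%. In the low group the mean was 37.1% ± 4.40 (SD, n = 37), from 23.4% through a median of 38.3% to 42.0%. These values chose the groups and are given as a description. The embryos just inside the high threshold had 55.1% and 55.3%, and those just outside it 54.7% and 54.6%. At the low threshold, the nearest embryos had 41.997% and 41.6% inside and 42.04% and 42.07% outside. Over all 154 embryos the mean was 48.4% ± 9.27 (SD). The votes of the 3SEQ reads for each allele followed the genotypes, with 29.8% ± 4.15 Cast votes in high and 18.3% ± 3.93 in low embryos. The ranges of this vote share overlapped, from 19.0% to 38.7% in the high group and from 9.01% to 25.5% in the low group.

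The difference in genotype was uneven along the genome. Chromosome 4 was heterozygous at 76.1% ± 29.3 of its genes in high and 36.1% ± 35.9 in low embryos, a difference of 39.97 percentage points. Chromosomes 14 and 2 followed with differences of 37.7 and 34.1 points. On chromosome 10 the means were 50.6% ± 40.9 and 46.7% ± 35.4, which differ by 3.93 points. The spread within a group was large on every chromosome because many chromosomes were inherited whole. In the high group 196 of 646 chromosomes (30.3%) were heterozygous from end to end and 88 (13.6%) were B6/B6 throughout. In the low group 84 of 703 (11.9%) were heterozygous throughout and 201 (28.6%) were B6/B6. At single genes, the percentage of heterozygous embryos was a median of 23.7 points higher in the high group, and it ranged from 57.6 points higher to 16.1 points lower. At 246 of 9655 genes tested for expression the high group was the less heterozygous.

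**Figure D1:**
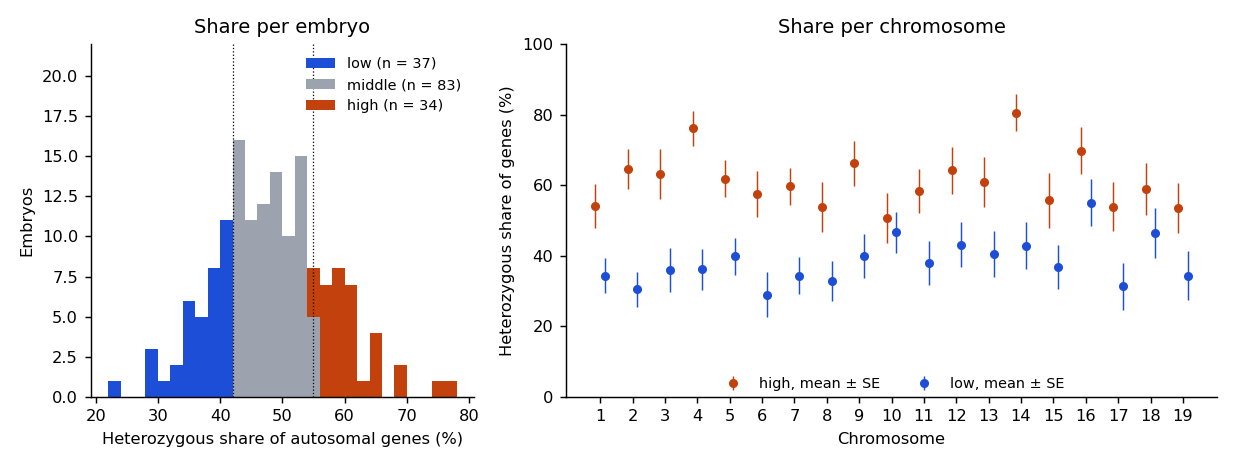
Left, number of N2 embryos by the share of autosomal genes with a B6/Cast genotype (%, stacked bars), with dotted lines at the thresholds of 42% and 55%; right, mean share per chromosome in the high and low groups, with bars of 1 standard error. The groups lie at the tails of a single distribution, and they differ most on chromosome 4 and least on chromosome 10.

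Every one of the 14 sequencing lanes held embryos of both groups, as did 15 of 25 litters. The number of somites, the paired blocks of trunk mesoderm that give an embryo's stage, was 48.9 ± 2.82 (SD, n = 33) in high and 49.0 ± 3.04 (SD, n = 36) in low embryos, with p = 0.746 in a two-sided permutation test within lanes. Between 245220 and 5370322 reads per embryo were counted on genes, and the depth did not differ detectably between the groups (p = 0.398, permutation test of log2 reads within lanes). The genotype switched between B6/B6 and B6/Cast 12.3 ± 2.05 times along the autosomes of a high embryo and 12.7 ± 2.53 times in a low embryo (p = 0.435, the same test). Allele votes per 1000 reads were 211 ± 28.99 and 209 ± 29.8 (p = 0.208).

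The groups differed in sex. The level of *Xist*, the noncoding RNA of the inactive X chromosome, split the embryos into 67 females and 87 males, with summed reads of Y-linked genes of at most 2.53 RPM in females and at least 3.30 RPM in males (RPM, the count scaled to 1000000 reads on genes). Females made up 10 of 34 high embryos (29.4%) and 22 of 37 low embryos (59.5%), with p = 0.0167 in Fisher's exact test and an adjusted p of 0.0836 over the 5 embryo-level comparisons. With F1 mothers, 3 of 15 high and 11 of 14 low embryos were female (p = 0.00281, Fisher's exact test), and with B6 mothers 7 of 19 and 11 of 23 (p = 0.542). Whether the mothers differ in this was not tested. Over all 154 embryos the mean share was 46.5% ± 9.34 in females and 49.8% ± 9.01 in males, with p = 0.0477 in a permutation test within lanes that was added after the data were seen. Sex therefore moves with the groups, and a fit with sex as a covariate is given beside the expression results.

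The libraries carried the genes of a whole embryo. *Hbb-y* and *Hba-x*, the primitive globins of the first red cells, averaged 64566 and 16110 RPM in high and 58852 and 18838 RPM in low embryos, and *Sox2*, *Myog*, *Myl7*, *Alb* and *Afp*, of the neural tube, muscle, heart and liver, had reads in all 71 embryos. Other markers of the same list did not: *Shh* had reads in 57 embryos, *Pax6* in 67, and *Myod1* and *Cryaa* in 70 each. Of 15 markers of placenta, decidua and yolk sac in the tables, *Prl3d1*, *Prl2c2*, *Prl8a9* and *Ctsq* had no read in any embryo. Others did have reads, among them *Amn* in 62 of 71 embryos (means of 1.78 RPM in high and 1.34 RPM in low), *Plac1* in 27 and *Cubn* in 17. The summed level of the 15 markers ranged from 41.1 to 174 RPM in the high and from 31.95 to 234 RPM in the low group. *Peg10*, an imprinted gene that embryos also express, held most of this sum, with means of 84.5 and 92.3 RPM.

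Expression was tested in the 9655 autosomal genes whose mean level reached 5 RPM, with edgeR's quasi-likelihood test on the counts and lane as a factor. No gene passed an adjusted p under 0.05 between high and low embryos, which is 0% of those tested. At an unadjusted p under 0.05 there were 448 genes, 4.64% of those tested. DESeq2 also called 0 genes (586 at an unadjusted p under 0.05), and limma voom called 1, *Padi2*. The median log2 change was close to 0, and 4809 genes (49.8%) had a higher fitted level in the high group. The 95% confidence interval lay within ±0.5 on the log2 scale for 7631 genes (79.04%) and within ±1 for 9596 (99.4%). Counts were also simulated with the depths of the same embryos, 200 changed genes and no lane effects. In these the test recovered 30% of genes changed 1.25-fold, 74% at 1.5-fold and 98% at 2-fold. With fewer changed genes the adjusted threshold is stricter, so these rates do not carry over to a comparison that called 0 genes. In the real counts 3 genes had a fitted log2 change above 1 in size, and none of them passed. With sex added to the edgeR model 0 genes passed, with 449 at an unadjusted p under 0.05.

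The 5 genes with the smallest p in each direction are given here, and none of them passed. *Padi2* (mm9 chr4:140462259-140508501, plus strand) encodes a peptidylarginine deiminase, which converts arginine in proteins to citrulline. Its level in high embryos ran from 3.25 through a median of 13.0 to 30.8 RPM, and in low embryos from 1.80 through 5.88 to 66.1 RPM. The ranges overlapped, and the low embryo at 66.1 RPM lay above every high embryo. The log2 change, high minus low, was 0.89 ± 0.19 (SE), with an adjusted p of 0.161 in edgeR's test, and the mean was higher in the high group in 12 of 14 lanes. The change of *Padi2* was 0.56 with B6 mothers and 1.47 with F1 mothers, and 0.53 at the median split of all 154 embryos. The gene was heterozygous in 82.4% of high and 32.4% of low embryos. Its level followed that genotype, at 16.1 ± 10.4 RPM in 40 heterozygous and 6.04 ± 4.90 RPM in 31 B6/B6 embryos. Among heterozygous embryos the high group averaged 16.0 ± 6.69 RPM (n = 28) and the low group 16.2 ± 16.4 RPM (n = 12), and among B6/B6 embryos the means were 6.15 ± 2.65 (n = 6) and 6.01 ± 5.34 RPM (n = 25). The low heterozygous mean includes the embryo at 66.1 RPM, and the low B6/B6 mean includes an embryo at 28.5 RPM. Both are shallow embryos of lane J, with 514626 and 245220 reads, and they raise these low means. The means without them were not computed.

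*Snph* (mm9 chr2:151416285-151458329, minus strand) encodes syntaphilin, which anchors mitochondria in axons. High embryos ran from 4.06 through a median of 16.6 to 34.2 RPM and low embryos from 0 through 9.11 to 23.8 RPM, with most high embryos above most low ones. The log2 change was 0.86 ± 0.19 (SE, adjusted p = 0.161, edgeR). The gene was heterozygous in 70.6% of high and 19.4% of low embryos, and the level was 20.1 ± 6.55 RPM in 31 heterozygous against 7.59 ± 3.18 RPM in 39 B6/B6 embryos. Within heterozygous embryos the high group had 21.1 ± 6.84 RPM (n = 24) and the low group 16.8 ± 4.24 RPM (n = 7). Within B6/B6 embryos the means were 7.43 ± 3.55 RPM (n = 10) and 7.65 ± 3.11 RPM (n = 29).

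The genes lowest in p among those with a lower level in high embryos had lower levels in heterozygous embryos. *Sap18* (mm9 chr14:58417017-58423817, plus strand), a subunit of histone deacetylase and splicing complexes, ran from 4.74 through 16.4 to 39.1 RPM in high and from 7.22 through 20.97 to 79.4 RPM in low embryos. Its log2 change was -0.60 ± 0.15 (SE, adjusted p = 0.406, edgeR), and it averaged 15.2 ± 6.80 RPM in 43 heterozygous and 28.1 ± 14.6 RPM in 27 B6/B6 embryos. *Med4* (mm9 chr14:73909856-73918352, plus strand), a subunit of the Mediator complex that links transcription factors to RNA polymerase, ran from 35.9 through 54.7 to 115 RPM in high and from 35.7 through 76.9 to 180 RPM in low embryos. The log2 change of *Med4* was -0.41 ± 0.11 (SE, adjusted p = 0.598, edgeR). It averaged 55.1 ± 14.4 RPM in 41 heterozygous and 90.2 ± 28.3 RPM in 30 B6/B6 embryos. Within heterozygous embryos *Med4* stood at 54.3 ± 14.0 RPM in the high and 56.7 ± 15.7 RPM in the low group.

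**Figure D2:**
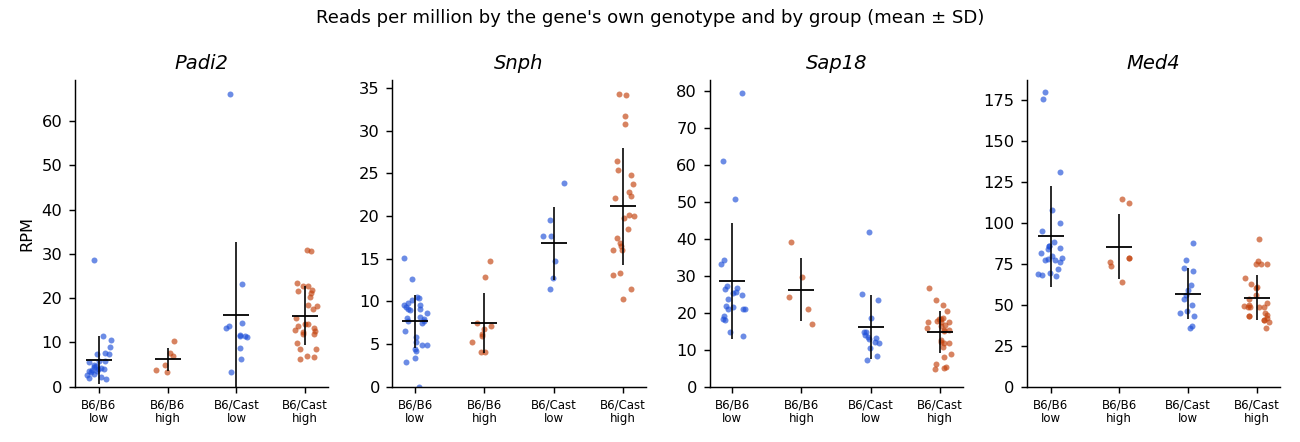
Level in RPM (y axes starting at 0) of *Padi2*, *Snph*, *Sap18* and *Med4* in single embryos, by the genotype of the gene itself and by group; black marks are the mean ± SD. The level steps between B6/B6 and B6/Cast embryos in all 4 genes, and high and low embryos of the same genotype overlap.

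Of the other leading genes, *Rbck1* (chromosome 2), a component of the linear ubiquitin ligase, had a log2 change of -0.44 ± 0.12 and averaged 63.4 RPM in heterozygous against 120 RPM in B6/B6 embryos. *Nop56* (chromosome 2), a core protein of box C/D snoRNPs, had a change of -0.58 ± 0.16, with 313 RPM against 629 RPM by its own genotype. *Cks1b* (chromosome 3), a subunit of cyclin-dependent kinases, had a change of 0.53 ± 0.15 and averaged 57.1 RPM in heterozygous against 26.8 RPM in B6/B6 embryos. *Naglu* (chromosome 11), a lysosomal enzyme of heparan sulfate breakdown, had a change of 0.44 ± 0.12, with 35.2 RPM against 21.9 RPM. These 4 genes had adjusted p between 0.598 and 0.743 in edgeR's test.

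*Pf4* and *Epcam* complete the leading genes. *Pf4* (mm9 chr5:91201461-91202407), platelet factor 4 of megakaryocytes and macrophages, ran from 32.8 through 187 to 483 RPM in high and from 40.8 through 154 to 305 RPM in low embryos, with a log2 change of 0.46 ± 0.12 (SE, adjusted p = 0.598, edgeR). Heterozygous embryos averaged 156 ± 50.4 RPM of *Pf4* and B6/B6 embryos 186 ± 76.3 RPM, so that the direction by its own genotype was the other way (log2 -0.17 ± 0.11, limma adjusted p = 0.384). The log2 change of *Pf4* was 0.19 with B6 mothers (unadjusted p = 0.198, edgeR) and 0.82 with F1 mothers. It was 0.29 without lane G, 0.28 in the second flowcell and 0.14 at the median split of all 154 embryos, and its slope over the continuous share had an adjusted p of 0.706. *Epcam* (mm9 chr17:88035319-88050446), the epithelial cell adhesion molecule, had a log2 change of -0.56 ± 0.15 (SE, adjusted p = 0.598, edgeR) and an effect of its own genotype of -0.42 ± 0.15 (limma adjusted p = 0.0480). Heterozygous embryos averaged 6.77 ± 3.29 RPM of *Epcam* (n = 28) and B6/B6 embryos 12.1 ± 7.33 RPM (n = 43). Its means were 8.22 ± 4.73 RPM in high and 11.7 ± 7.62 RPM in low embryos, in the 2 groups, and the ranges overlapped, from 2.98 to 20.4 and from 2.31 to 31.7 RPM. Both are genes of particular cell types, and in whole embryos fewer cells of a type and less RNA per cell cannot be told apart.

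The leading genes were often on the chromosomes where the groups differed most in genotype. Of the 30 genes with the smallest p, 15 were on chromosomes 2, 4 and 14, which hold 18.6% of the genes tested. Of the 448 genes with an unadjusted p under 0.05, 117 (26.1%) were on these 3 chromosomes. The share of tested genes with such a p was 7.02% on chromosome 4, 6.79% on chromosome 14 and 2.79% on chromosome 10. It was also 6.96% on chromosome 8 and 6.05% on chromosome 19, where the median gene differed by 20.5 and 12.4 points in heterozygosity, so it did not follow that difference on every chromosome. Shares below that of chromosome 10 occurred at larger differences, with 1.65% on chromosome 1 (20.7 points), 2.29% on chromosome 16 (13.8 points) and 2.74% on chromosome 12 (21.9 points). Genes of a chromosome are inherited in blocks and are not independent counts.

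To separate the genotype of the gene itself from the genome-wide share, each gene was fitted with its own genotype as a covariate beside the group, with limma voom in the same 71 embryos. The own genotype passed an adjusted p under 0.05 for 1122 of 9655 genes (11.6% of those tested), 590 with a higher and 532 with a lower level in heterozygous embryos. The group passed for 0 genes in that fit, with 323 at an unadjusted p under 0.05, against 1 and 502 in the limma fit without the own genotype. Among the 30 genes with the smallest p in the comparison of groups, the own genotype passed for 17, and the change between groups was smaller in size with the own genotype in the model for 27. Their median absolute log2 change went from 0.42 to 0.23. These 30 were chosen by their p in the same embryos, so these counts are a description. *Padi2* went from 1.01 ± 0.19 to 0.28 ± 0.16, *Snph* from 0.86 ± 0.20 to 0.10 ± 0.14 and *Med4* from -0.38 ± 0.11 to -0.06 ± 0.06 (SE). *Sap18* went from -0.59 ± 0.14 to -0.23 ± 0.11 and *Naglu* from 0.42 ± 0.12 to 0.25 ± 0.11. *Cks1b* went from 0.56 ± 0.16 to 0.26 ± 0.13 and *Nop56* from -0.61 ± 0.15 to -0.21 ± 0.14. *Rbck1* went from -0.45 ± 0.12 to -0.10 ± 0.09. *Pf4* went from 0.37 ± 0.11 to 0.38 ± 0.11 and *Epcam* from -0.49 ± 0.15 to -0.41 ± 0.14.

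The 1122 genes with an effect of their own genotype had an unadjusted p under 0.05 between the groups in 12.7% of cases, and the other genes in 3.57%. Both were measured in the same embryos, and the own genotype is tied to the groups at most genes. The difference between these percentages is therefore partly built in and is a description. The genotype of a gene here stands for that of the linked block around it, so that a neighboring variant and one in the gene give the same value.

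The F1 embryos, which were not used to form the groups, gave a separate prediction for each gene. In an F1 embryo both alleles are read in the same cells, and the B6 allele fraction (BAF), the B6 votes divided by all votes, gives the ratio of the alleles. From the BAF over 16 F1 embryos and the percentages of heterozygous high and low embryos at the gene, a log2 change between groups was computed for 8033 tested genes with at least 100 votes and a BAF that differed by less than 0.3 between the reciprocal F1 crosses. A change above 0.1 in size was predicted for few genes. Of 494 genes with a predicted rise of at least 0.1, 328 (66.4%) were measured higher in high embryos, with a median measured change of 0.07 and a median prediction of 0.16. Of 421 with a predicted fall, 316 (75.1%) were measured lower, with a median of -0.11 against a prediction of -0.14. Among the 7118 genes in between 49.5% were higher. Across the 8033 genes Spearman's rho between predicted and measured change was 0.240 and Pearson's r 0.301. Genes share the embryos and the blocks they were inherited in and are not independent, so no p is given. With each gene's own genotype in the model, rho was 0.041, and 46.8% of the genes with a predicted rise and 54.9% of those with a predicted fall had the predicted sign. The prediction holds only the effect expected from the own genotype, so a fit with that genotype takes it out by design. The lower rho is therefore no separate result. It also comes from a limma fit, while the rho of 0.240 comes from edgeR. Of 988 genes with both an F1 prediction and a called effect of their own genotype in N2 embryos, 842 (85.2%) had the same sign.

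**Figure D3:**
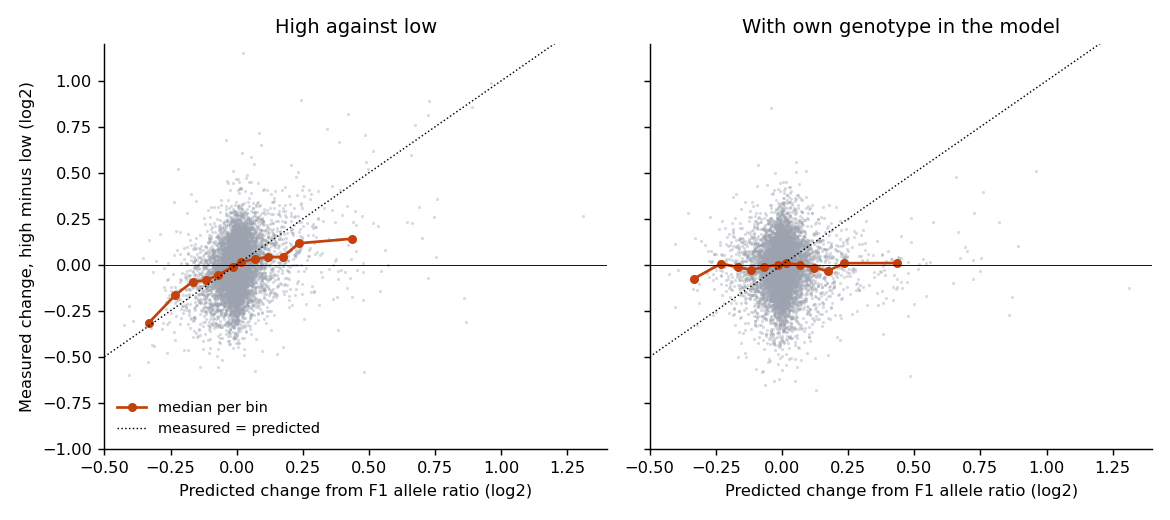
Measured log2 change between high and low embryos (y axis) against the change predicted from the F1 allele ratio and the genotypes (x axis, log2) for 8033 genes, from the edgeR fit (left) and with the gene's own genotype in a limma model (right); grey points are genes, orange points medians per bin of predicted change, and 1 gene per panel lies outside the y axis. The medians rise from -0.32 to 0.14 on the left and stay between -0.08 and 0.01 on the right. The model on the right takes out the own genotype, on which the prediction rests.

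The genes with the largest predictions are listed with their levels. *Plek2*, pleckstrin 2 of red cell precursors, had a BAF of 0.0226, so almost all its F1 votes were Cast. It averaged 13.9 ± 6.45 RPM in 35 heterozygous and 1.53 ± 1.59 RPM in 36 B6/B6 embryos. Between groups the means were 10.4 ± 8.03 and 5.12 ± 6.69 RPM, a log2 change of 0.99 ± 0.46 (SE, adjusted p = 0.982, edgeR) against a predicted 0.96. *Rpl11*, of the large ribosomal subunit, was predicted to rise by 0.82 and measured at 1.57 ± 0.48 (adjusted p = 0.982). It averaged 89.9 ± 34.7 RPM in heterozygous and 5.82 ± 5.45 RPM in B6/B6 embryos. Ribosomal protein genes have many near-identical copies in the genome, and the authors discarded reads with a near-equal second alignment. What this does to the level of *Rpl11* was not tested. *Snph*, above, was predicted at 0.89 and measured at 0.86.

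Other large predictions were not met in the measured levels. The zinc finger gene *Zfp937* was predicted to rise by 1.31 and measured at 0.27 ± 0.19. *Fdps*, farnesyl diphosphate synthase of the cholesterol pathway, was predicted to rise by 0.87 and measured at -0.31 ± 0.20, and *Smndc1*, a splicing factor, was predicted to rise by 0.86 and measured at -0.18 ± 0.17. The BAF of *Fdps* rested on 149 votes, that of *Smndc1* on 280 and that of *Zfp937* on 208. Predictions closer to the measured change also rested on few votes, 269 for *Snph* and 140 for *Rec8*, given below. By the own genotype of each gene, heterozygous embryos had 44.5 ± 33.9 RPM of *Fdps* against 65.1 ± 39.4 RPM in B6/B6 embryos, and 16.8 ± 11.8 against 13.6 ± 7.78 RPM of *Smndc1*. For *Zfp937* the levels were 8.45 ± 5.26 and 4.16 ± 3.97 RPM, and its own genotype passed (log2 0.78 ± 0.22, limma adjusted p = 0.0126). None of the 3 passed between the groups (edgeR, adjusted p of at least 0.982). Among the leading genes above, *Nop56* was predicted at 0.07 (BAF of 0.453 on 402 votes) and measured at -0.58. Its own genotype had a log2 effect of -0.86 ± 0.14 (SE, limma). *Pf4* was predicted at -0.04 and measured at 0.46, and *Cks1b* had 0 F1 votes. For *Padi2*, *Snph*, *Naglu*, *Sap18*, *Med4*, *Epcam* and *Rbck1* the prediction had the sign of the measured change.

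Among the predicted falls, *Rec8*, a meiotic cohesin subunit, was predicted at -0.43 and measured at -0.33 ± 0.13. *Vcp*, the AAA ATPase that extracts ubiquitinated proteins, was predicted at -0.39 and measured at -0.30 ± 0.14, and *Sap18* was predicted at -0.41 and measured at -0.60 ± 0.15. *Rec8* averaged 13.3 ± 3.80 RPM in heterozygous and 21.5 ± 5.83 RPM in B6/B6 embryos, and *Vcp* 44.5 ± 27.4 and 70.9 ± 50.3 RPM. *Phgdh*, the first enzyme of serine synthesis, was predicted at -0.33 and measured at -0.53 ± 0.31. *Il17d*, a cytokine gene, was predicted at -0.36 and measured at 0.04 ± 0.16. *Esd*, esterase D, was predicted at -0.41 and measured at -0.22 ± 0.53, with levels from 1.04 to 508 RPM in high and from 0 to 678 RPM in low embryos. That spread of *Esd* was as wide within each genotype, at 159 ± 179 RPM in heterozygous and 175 ± 240 RPM in B6/B6 embryos. None of these falls passed (edgeR, adjusted p of at least 0.406).

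Groups of genes with known roles were then described as lists, each by its median log2 change beside a median of -0.0008 over all genes tested, and by its members at an unadjusted p under 0.05, which 4.64% of all genes reached. No member of any of the 28 lists passed an adjusted p under 0.05 in edgeR's test. The lists hold 762 different genes tested, and those below 5 RPM are not described. The list medians ran from -0.11 to 0.45, 14 above and 14 below 0. Most list medians were not stable in sign. Over 39 settings with these genes, the one reported here included, the lens crystallins, striated muscle genes and whole embryo markers stayed above 0 and glycolysis and hypoxia below, and each other list changed sign in at least 1.

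The lens crystallins, the structural proteins of the eye lens, had the highest median. Of 15 members listed, 7 were tested, and all 7 were higher in the fit, with a median log2 change of 0.45, and 3 had an unadjusted p under 0.05. *Cryga* averaged 8.63 ± 12.0 RPM in high and 5.09 ± 10.2 RPM in low embryos, a log2 change of 1.15 ± 0.49 (SE, edgeR adjusted p = 0.982), and *Crybb1* 12.0 ± 9.78 and 8.05 ± 8.04 RPM, a change of 0.68 ± 0.28 (adjusted p = 0.982). *Cryaa* had a change of 0.55 ± 0.25 and *Crybb3* of 0.45 ± 0.23. *Cryab*, *Cryba1* and *Cryba4* lay between 0.12 and 0.31. The lens is a small tissue that the crystallins share, so the 7 genes are not separate lines of evidence. *Cryab* is also on the list of heat shock proteins and chaperones, so its reads need not come from the lens. It averaged 37.3 RPM in high and 36.3 RPM in low embryos, and it is part of the sum that follows. Summed over the 7, the level ran from 48.8 through a median of 126 to 347 RPM in high and from 25.3 through 101 to 379 RPM in low embryos. The groups overlapped nearly in full, and the lane median was higher in the high group in 8 of 14 lanes. With somite number as a covariate the median of the list was 0.46, and with sex 0.46. It was 0.44 with B6 mothers (0.41 with sex added) and 0.46 with F1 mothers. With F1 mothers and sex it was 0.07, with 5 of 7 genes higher and 0 at an unadjusted p under 0.05, where females made up 3 of 15 high and 11 of 14 low embryos. The median was 0.20 in the first flowcell and 0.69 in the second, 0.28 without lane in the model, 0.27 over the 2 genes at 20 RPM or more, and 1.24 for shares of at least 0.60 against at most 0.38. The own genotype passed for none of the 7 genes.

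**Figure D4:**
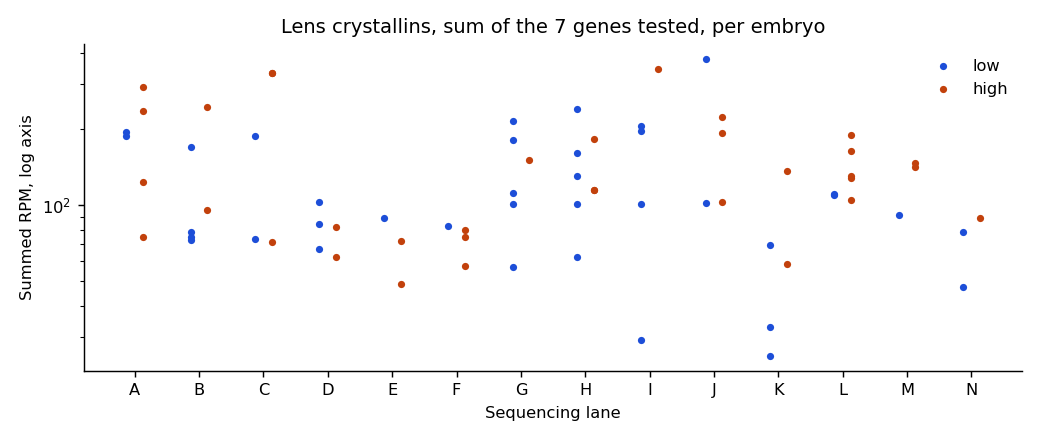
Summed level of the 7 lens crystallin genes tested (RPM, log axis) in each of the 71 embryos by sequencing lane, with high and low embryos in separate colors. Levels differ many times over within a lane and within a group, and the groups overlap, from 48.8 to 347 RPM in high and from 25.3 to 379 RPM in low embryos.

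Contractile and liver genes also lay above the median of all genes. Of 21 striated muscle genes, 18 were higher in the fit (median 0.10), and 4 had an unadjusted p under 0.05, all higher. *Myh6*, the alpha myosin heavy chain of the heart, averaged 138 RPM in high and 111 RPM in low embryos, a change of 0.36 ± 0.13, and *Tnnc1*, cardiac troponin C, had a change of 0.22 ± 0.08 (edgeR adjusted p = 0.982 for both). The 16 secreted proteins of the fetal liver had a median of 0.15, with 0 genes at an unadjusted p under 0.05. That median was 0.07 with limma voom and ran from -0.11 (F1 mothers, with sex) to 0.40 over the settings. *Apoa2* and *Apoa1*, apolipoproteins of high-density lipoprotein, had changes of 0.29 ± 0.15 and 0.31 ± 0.18. The 11 cartilage genes had a median of 0.11, with *Col2a1* at 0.14 ± 0.07 and *Acan*, aggrecan, at 0.39 ± 0.19, and the cartilage median ran from -0.23 (F1 mothers, with sex) to 0.23. The 8 globins had a median of 0.12, with 0 at an unadjusted p under 0.05, and from -0.05 (B6 mothers) to 0.42 over the settings. *Hbb-y* had a change of 0.20 ± 0.16 and *Beta-s*, a globin entry of the tables, 0.45 ± 0.27. The whole embryo markers overlap these lists and had a median of 0.14, or 0.05 with limma voom.

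Among lists of growth and metabolism, those of mitosis, DNA replication, glycolysis and cholesterol synthesis had medians below 0, while oxidative phosphorylation and the imprinted growth genes, given further on, lay above 0. Of 23 mitosis genes 19 were lower, with a median of -0.11, and *Plk1*, polo-like kinase of mitosis, was the only member at an unadjusted p under 0.05, with 108 RPM in high and 112 RPM in low embryos and a fitted change of -0.19 ± 0.09. Of 33 DNA replication genes 25 were lower, with a median of -0.09, and *Pcna*, the sliding clamp, and *Mcm7*, of the replicative helicase, had changes of -0.44 ± 0.21 and -0.35 ± 0.17. Of 17 genes of glycolysis and hypoxia 13 were lower, with a median of -0.11, and lactate dehydrogenase *Ldha* averaged 476 and 549 RPM, a change of -0.36 ± 0.15. Of 17 genes of cholesterol synthesis 14 were lower, with a median of -0.11. Each of the members named had an adjusted p of 0.982 in edgeR's test.

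Lists that track stress lay close to the median of all genes. Heat shock proteins and chaperones had a median of -0.03 over 22 genes, and p53 targets -0.01 over 11, with 0 genes at an unadjusted p under 0.05 in either. *Cct8*, of the chaperonin that folds actin and tubulin, had a change of -0.23 ± 0.16, and *Btg2*, an antiproliferative p53 target, 0.16 ± 0.11. The unfolded protein and integrated stress response had a median of 0.01 over 15 genes, the interferon response 0.01 over 6, the immediate early genes 0.0006 over 10, and these lists too had 0 genes at such a p. Antioxidant genes had a median of -0.04 over 22. *Prdx2*, a peroxiredoxin abundant in red cells, had a change of -0.37 ± 0.16, and *Gstz1*, a glutathione transferase of tyrosine breakdown, averaged 100 and 74.7 RPM, a change of 0.50 ± 0.22 (edgeR adjusted p = 0.982 for both).

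The housekeeping complexes had medians near 0. The cytosolic ribosomal proteins had a median of -0.02 over 66 genes, with 4 higher and 4 lower at an unadjusted p under 0.05. These 8 of 66 are a larger share than the 4.64% of all genes, and the changes in the list ran from -0.47 to 1.57. *Rpl6* stood beside *Rpl11* with a change of 1.19 ± 0.40 and levels of 27.5 and 6.33 RPM, and the effect of copies was not tested for it either. *Rpsa* had a change of -0.40 ± 0.15. Mitochondrial ribosomal proteins had a median of -0.0043 over 71 genes, with *Mrpl43* at 0.24 ± 0.08 and *Mrps17* at 0.31 ± 0.13, both with unadjusted p under 0.05. Of 72 genes of oxidative phosphorylation 46 were higher, with a median of 0.05, *Ndufv3* at 0.25 ± 0.11 and *Atp5g1* at -0.39 ± 0.20, and the proteasome -0.04 over 35, with *Psmb10* at 0.23 ± 0.10.

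**Figure D5:**
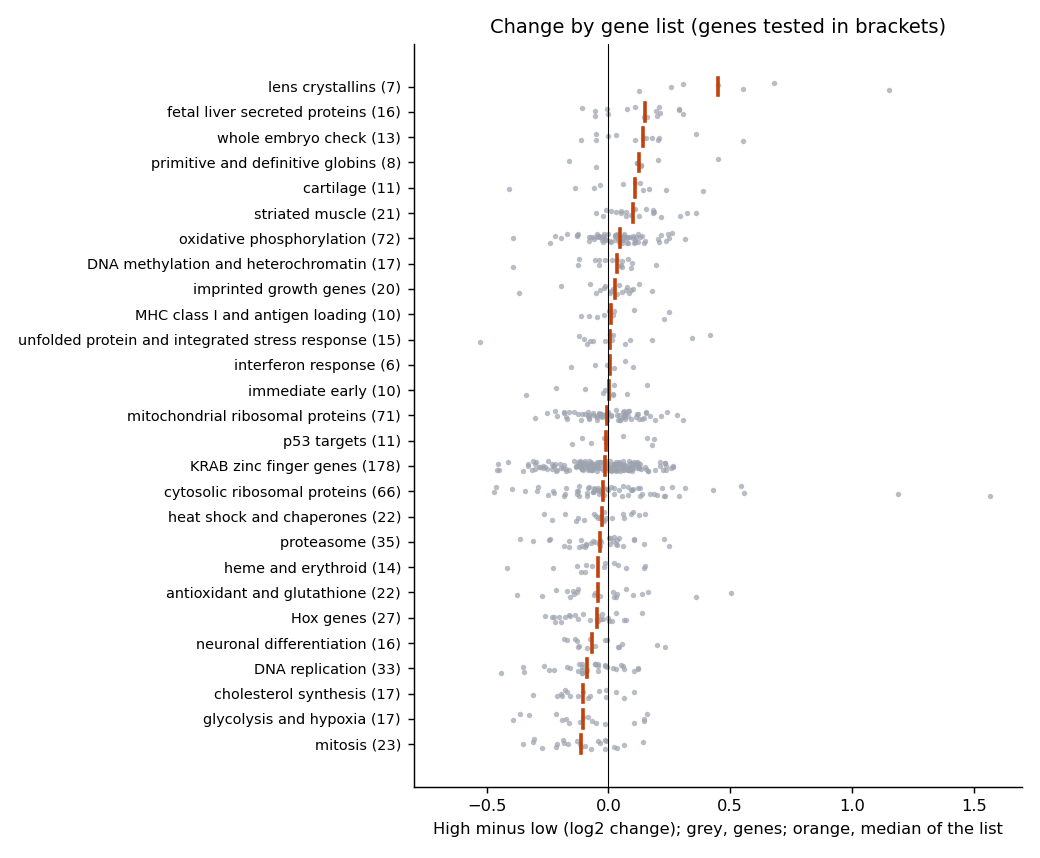
Log2 change between high and low embryos (x axis) for the members of each gene list with at least 5 genes tested (grey points), with the median of the list as an orange bar and the number of genes in brackets. Medians lie between -0.11 and 0.45, and the lens crystallins stand at the top.

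Lists of genes that pattern or regulate the embryo had medians from -0.07 to 0.04. Of the 27 Hox genes 21 were lower, with a median of -0.05 and *Hoxd4* at -0.26 ± 0.13 as the only member at an unadjusted p under 0.05. Of 16 genes of neuronal differentiation 11 were lower, with a median of -0.07 and *Tubb3*, neuronal tubulin, at 0.20 ± 0.13, and the heme and erythroid genes had a median of -0.04 over 14. Of 20 imprinted growth genes 13 were higher, with a median of 0.03, *Nnat*, neuronatin, at -0.37 ± 0.26 and 0 genes at such a p. MHC class I and antigen loading had 0.01 over 10. DNA methylation and heterochromatin had 0.04 over 17, with *Dnmt3b*, a de novo DNA methyltransferase, at -0.39 ± 0.16. Zinc finger genes, chosen by symbol, had -0.02 over 178, with 4 higher and 6 lower at an unadjusted p under 0.05, and *Zfp940* at -0.45 ± 0.14 had the smallest p among them.

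The spread between embryos was close in the 2 groups. The SD of log2 levels around the lane mean had a median of 0.49 over genes in high and 0.48 in low embryos. It was larger in the high group for 54.0% of genes, with a median ratio of 1.02, and no test was made of this.

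Using the share as a continuous measure over all 154 embryos brought 4 genes past an adjusted p under 0.05 (0.0414% of those tested). The 154 embryos include both groups and are no separate sample. Per 10 percentage points of share, *Snph* changed by 0.36 ± 0.07 (adjusted p = 0.0102), *Med4* by -0.18 ± 0.04 (adjusted p = 0.0102), *Padi2* by 0.33 ± 0.08 and *Hyi*, a hydroxypyruvate isomerase homolog, by 0.17 ± 0.04 (adjusted p = 0.0452 for both, edgeR). *Hyi* (mm9 chr4:118032595-118035349) was chosen after its values were seen. It averaged 77.8 ± 24.9 RPM in 39 heterozygous and 52.0 ± 17.8 RPM in 32 B6/B6 embryos of the 2 groups. A limma voom fit of the same 154 embryos, added after the data were seen, called 8 genes (634 at an unadjusted p under 0.05), with slopes of 0.32 for *Snph*, -0.18 for *Med4*, 0.38 for *Padi2* and 0.17 for *Hyi*. With the own genotype added to that limma fit 0 genes were called, with 340 at an unadjusted p under 0.05, and the 4 slopes were 0.01 for *Snph*, -0.03 for *Med4*, 0.10 for *Padi2* and 0.08 for *Hyi*.

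By mother, edgeR called 0 of 9655 genes in 42 embryos of B6 mothers (278 at an unadjusted p under 0.05) and 0 of 9655 in 29 embryos of F1 mothers (1039). In all 71 embryos 448 of 9655 genes (4.64%) had such a p. With sex in the model these were 0 (264) and 0 (747), where the sexes are unevenly split between the groups of F1 mothers. A test of the difference between mothers called 0 of 9655 genes, with 753 at an unadjusted p under 0.05.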

How the data were processed

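The authors aligned 3SEQ reads to both parental genomes (mm9 for B6, and mm9 with published Cast SNPs) using Bowtie2 and deposited raw counts of reads on the exons of each RefSeq gene. The authors also deposited allele votes, which are estimated counts in which the SNPs covered by a read share its vote, and genotypes from a hidden Markov model as a score of 0.5 (B6/Cast) or 1.0 (B6/B6) per gene. In pairs of gene and embryo with code 0.5, Cast votes made up 50.0%, and with code 1.0 they made up 0.194%. In 0.524% of pairs no genotype was called, and these were left out of the share. The authors trimmed only poly(A) stretches from the N2 reads and discarded a read whose second-best alignment was nearly as good as its best. Tool versions were not given in the sources used here. Coordinates are those of the GENCODE annotation of mm9.

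Of 168 N2 columns, 8 had labels without a mother and 6 labelled embryos had no genotypes, and these were not used. The depth was a median of 2384843 reads per embryo, at which 5 RPM is about 11.9 reads, so levels of low genes in single embryos are imprecise. edgeR 4.0.16 (TMM, robust quasi-likelihood fit, two-sided, Benjamini-Hochberg adjustment, 56 residual degrees of freedom) was used with lane as a factor. Mothers were nested in lanes among these embryos, so the mother's term added nothing. The common biological coefficient of variation was 0.317. SEs of the fitted changes were derived from the F statistics. limma 3.58.1 (voom, empirical Bayes), DESeq2 1.42.0, R 4.3.3 and scipy 1.17.1 were also used. Embryo-level permutation tests shuffled labels within lanes 100000 times on values centered within lanes. Litter mates share parents, and p-values treat embryos as independent given lane.

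The edgeR test was tried on simulated data with 200 changed genes among 9655, with 6 false calls. The other tests were not tried on simulated data. The groups, gene lists and alternatives were chosen with earlier results of these data known. The genes named are the 5 with the smallest p in each direction, the 6 with the largest predicted rise and fall, and the leading members of each list. Genes described beyond these were chosen after their values were seen.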

Additional observations from a re-analysis of the deposited data

How the results depend on the processing

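Of 40 alternatives of the comparison across genes, 33 called 0 genes as the main one did. limma voom, the fit without a filter on low values, the embryos with at least 1000000 reads, the split at the median share and the fit without lane J called 1 gene each, *Padi2* except for *1700008F21Rik* without the filter and *Snph* at the median split. The continuous share called 4 with edgeR and 8 with limma voom, the latter added after the data were seen. Leaving out each lane in turn gave counts between 0 and 1, and between 292 (without lane G) and 793 (without lane F) genes at an unadjusted p under 0.05. Over all alternatives that number ran from 215 (second flowcell) to 1039 (F1 mothers). With the own genotype in the model the count was 0 in the 71 embryos and 0 with the continuous share. Adjusted p of *Padi2* ran from 0.0046 to 1.00 over its alternatives, of *Snph* from 0.0102 to 1.00 and of *Med4* from 0.00965 to 1.00.

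The difference in somite number, -0.16 within lanes, was 0.36 within litters (p = 0.272) and 0.46 for shares of at least 0.60 against at most 0.38 (p = 0.468, permutation tests). The difference in the percentage of females, -30.05 points, was -10.98 points with B6 mothers alone. Spearman's rho of predicted and measured change was 0.271 with at least 500 votes and 0.041 with the own genotype in the model. The other embryo-level differences kept their sign and their side of the threshold under the alternatives run.

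Of 908 pairs of a named gene and an alternative, 28 changed sign, and the cause was not tested. *Zfp937* became -0.12 with its own genotype in the model, -0.011 with that and the continuous share, and -0.055 with F1 mothers. *Fdps* became 0.035 at the median split. *Smndc1* became 0.022 (edgeR) and 0.017 (limma) with the continuous share, 0.011 with its own genotype too, 0.28 for the more extreme shares, 0.027 at the median split and 0.030 with F1 mothers and sex. *Esd* became 0.053 with limma voom, 0.12 and 0.012 with its own genotype in the group and continuous fits, 0.24 with somite number, 0.41 with B6 mothers, 0.40 with sex added, 0.42 in the second flowcell, and ran from -0.68 to 0.21 with a lane left out, above 0 without lanes B (0.013) and C. *Vcp* became 0.013 with F1 mothers and sex. *Il17d* became -0.00094 with somite number, -0.19 with F1 mothers, -0.25 with sex added and ran from -0.012 (without lane B) to 0.073 with a lane left out. *Phgdh* became 0.14 with F1 mothers and sex and 0.12 in the Mann-Whitney test. *9130206I24Rik* became 0.057 with F1 mothers and 0.014 with sex added.

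No paired analysis was possible because replicate numbers only name embryos in accession order and match no high with a low embryo. Embryos could be matched by lane and by litter, and litter in place of lane called 0 genes (449 at an unadjusted p under 0.05). Changes under 1.5-fold in single genes would often be missed at this depth and number of embryos. Larger fitted changes, such as the log2 change of 1.57 of *Rpl11*, did not pass either.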

Other observations

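Genotypes were also given for the X chromosome, which the share does not use. Embryos of B6 mothers had 0% of X-linked genes coded as heterozygous in both groups. This follows from the cross, since their F1 fathers came from B6 females and carry a B6 X. With F1 mothers the mean was 54.6% ± 43.8 in 15 high and 41.8% ± 36.1 in 14 low embryos, with values from 0% to 100% in both groups. Males have a single X, so in a male this code is not heterozygosity. Females made up 3 of these 15 high and 11 of these 14 low embryos, so the means mix the sexes unevenly. The means by sex were not computed.

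Genes that passed an adjusted p under 0.05 in some alternative, and that are not among the genes named by rule, were chosen here after their values were seen. *Tssk4*, a testis-specific serine kinase gene on chromosome 14, averaged 12.8 ± 5.80 RPM in high and 9.17 ± 5.33 RPM in low embryos. Its log2 change was 0.56 ± 0.18 (edgeR adjusted p = 0.982), and with its own genotype in the model 0.10 ± 0.12, while its own genotype had a log2 effect of 1.31 ± 0.13. It was heterozygous in 85.3% of high and 43.2% of low embryos. *9130206I24Rik* on chromosome 4 averaged 5.26 ± 2.61 and 6.39 ± 2.5 RPM, with a change of -0.33 ± 0.15 (edgeR adjusted p = 0.982) and an own effect of -0.60 ± 0.14. *1700008F21Rik*, which fell under the filter on low values, had a log2 change of 2.64 and an adjusted p of 0.0364 in edgeR without that filter.

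*Rpl6*, on chromosome 5, had a fitted change of 0.78 ± 0.29 with its own genotype in the model (SE, limma adjusted p = 0.991, unadjusted p = 0.0095), beside an own effect of 2.65 ± 0.30. Over all 154 embryos the slope per 10 points with the own genotype in the model was 0.00 for *Rpl6* (unadjusted p = 0.996, limma).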
